A study of Mus musculus with 5 samples.

Results

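Ttf2 (TTF2 in the library) is 1 of the 1682 genes targeted in a pooled CRISPR screen of mouse embryonic stem (ES) cells. It was chosen by its deposited guide counts, which were known to show a late and very deep loss of its guides. The library rows named TTF2 are 10 of 17820 guides, and 8 of them had at least 30 reads in both plasmid libraries and are described as kept guides. Because the choice used the same counts, the course of Ttf2 is given as a description with no test. The genes Polr2c and Polr2g serve as references for an early loss, and 893 kept non-targeting guides as the background.

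The study sequenced 5 libraries: 2 of the plasmid guide pool before it entered cells, and, from transduced cells, 1 library each for days 5, 8 and 12. At all 3 days the cells carried the genotype label Ainv15(iNgn2 Tubb3::GFP), had no treatment by their label, and were kept in ES cell medium with 50 ng/µL Zeocin, which kills cells that did not take up the vector. The plasmid libraries carry the same cell and genotype labels, although their titles name the plasmid preparation. A guide RNA directs Cas9 to cut its gene, and cells that die or divide slowly after the cut take their guide's reads out of the library with them. The source of Cas9 in these cells is not given in the sources used here. With 1 library per day there was no replicate culture, and intervals below cover counting error only, since reads amplified by PCR are not separate cells. The titles count days from transduction and the protocol counts the first from selection, so day numbers are the titles' names, and rates per day take the gaps as 3 and 4 days. The labels do not say whether the 3 days were sampled from 1 culture. The libraries held 3541896 and 1350234 reads for the plasmid pool and 1063071, 1082489 and 1008492 reads at days 5, 8 and 12.

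Ttf2 codes for transcription termination factor 2, an enzyme of the SNF2 family of ATPases. It uses ATP to release RNA polymerase II and its unfinished transcripts from the DNA template, and in human cells it is known for clearing the polymerase from chromosomes as cells enter mitosis. Polr2c and Polr2g code for subunits of that polymerase. In the RefSeq annotation of GRCm38.p6 (mm10), Ttf2 is a protein-coding gene with the gene ID 74044 on chromosome 3 from 100938860 to 100969700. Polr2c lies on chromosome 8 from 94857450 to 94864242, and Polr2g on chromosome 19 from 8793129 to 8798557. Guide cut sites in the genome were not analysed here.

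The 10 guides to Ttf2 did not mark 10 separate places in the gene. Guides that overlapped by at least 7 bases, on either strand, were joined, which left 6 target windows. They are printed by window because guides of a window share their target and are not independent readings of the loss. Capitals mark the bases shared with another guide of the window.
guide 14101: GTTGGACttaacctgactgg
guide 14104: GTCCAACaccgCCAGCCAAG
guide 14106: ctgatctccctCTTGGCTGG
guide 14102: GCATGTCCAGAAGGAAAagg
guide 14108: agtGCATGTCCAGAAGGAAA
guide 14103: ccccaaACAGAGAATGGACC
guide 14110: ACAGAGAATGGACCtggtgg
guide 14105: tgtgaccggatttaccgagt
guide 14107: cgatggtggcgtaagtcagt
guide 14109: agtggttaaatgcctccacc

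The first 3 guides formed a window of 44 bases, guides 14102 and 14108 one of 23 bases, and guides 14103 and 14110 one of 26 bases. In the joined windows, capitals mark the NGG motif next to a guide's 3′ end, which Cas9 needs to cut and which reads CCN where the guide lies on the other strand.
window 1: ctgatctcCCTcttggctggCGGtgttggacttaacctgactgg
window 2: agtgcatgtccagaaggaaaAGG
window 3: ccccaaacagagaatggaccTGGtgg

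All 4 guides whose next 3 bases could be read from an overlapping guide had bases ending in GG there. The 7-base join of guides 14101 and 14104 has no such reading, since their 5′ ends face each other. Over the whole library 99.0% of 5261 readable joins had GG there, and 92.9% of 410 joins of the minimum length. A gene had a median of 7 windows, and 33.1% of genes had 6 or fewer, so many genes share this overlap.

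The guides to Ttf2 were below the level of the pool at day 5, far below it at day 8, and almost gone at day 12. The 8 kept guides together had 1666 and 594 reads in plasmid libraries 1 and 2, 276 at day 5, 74 at day 8 and 9 at day 12. Scaled for library size, that left 56.5% of the plasmid abundance at day 5 (95% exact interval 49.7 to 64.0%), 15.0% at day 8 (11.7 to 18.9%) and 2.08% at day 12 (0.952 to 3.96%). All 10 guides together had 303, 84 and 12 reads at the 3 days. The intervals of the 8 kept guides do not overlap between the 3 days. They cover counting error only, and the gene was chosen for this fall, so nothing more is read from them.

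The first window held the kept guide with the most left at day 12. Guide 14106 had 145 and 59 reads in the plasmid libraries and 38, 18 and 4 reads at days 5, 8 and 12. It stood at 86.2% of its plasmid abundance at day 5 (interval 59.3 to 122%) and at 10.3% at day 12 (2.77 to 26.7%), which overlaps the interval of every other kept guide at day 12. Guide 14101, with 133 and 45 plasmid reads, had 21, 3 and 1 reads at the 3 days, and guide 14104, with 109 and 31, had 8, 5 and 0. At day 5 these 2 guides had 54.6% (33.0 to 86.0%) and 26.4% (11.2 to 53.5%) left, intervals that overlap.

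The second window held the most abundant of the kept guides. Guide 14102 had 583 and 181 plasmid reads and 65, 20 and 2 reads at the 3 days, which left 39.4%, 12.0% and 1.37% (0.166 to 4.96% at day 12). Guide 14108 had 92 and 38 plasmid reads and 7, 2 and 0 reads. With 24.9% left at day 5 (9.82 to 52.8%) it was the lowest kept guide of that day, and its interval overlapped that of guide 14102 (30.1 to 50.7%).

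The kept guides of the remaining windows had 57.5 to 107% left at day 5. Guide 14110 had 349 and 127 plasmid reads and 71, 8 and 1 reads at days 5, 8 and 12. That was 69.0% (53.0 to 88.7%), 7.70% and 1.10% left. Guide 14105 had 133 and 44 plasmid reads and 22, 2 and 0 reads, with 57.5% left at day 5 (35.1 to 89.8%). Guide 14107 had 122 and 69 plasmid reads and 44, 16 and 1 reads, so that 107% was left at day 5 (75.0 to 149%), 38.4% at day 8 and 2.74% at day 12 (0.0690 to 15.4%). Its loss was not detectable at day 5 at this depth.

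At day 12 guides 14104, 14105 and 14108 had no reads. Taking 3 reads as the most that a count of 0 allows in that library, they were at least 8.92-fold, 11.3-fold and 8.28-fold lower than in the pool. The 2 guides under the read minimum pointed the same way. Guide 14103 had 64 and 28 plasmid reads and 12, 1 and 1 reads at the 3 days, and guide 14109 had 82 and 19 plasmid reads and 15, 9 and 2 reads.

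A guide's change is log2 of the ratio between its level on a day and in the pool, each as scaled counts (CPM) with 1 added, and a gene's change is the median over its kept guides. By this measure Ttf2 stood at -0.76 at day 5 (SD over guides 0.67), -3.09 at day 8 (SD 0.93) and -4.83 at day 12 (SD 0.84, n = 8 guides each time). At day 5, 3 of 8 guides were at or below -1, where 12.9% of all kept guides to genes and 3.36% of non-targeting guides were found. At days 8 and 12 all 8 guides were past that mark, against 17.9% and 21.5% of guides to genes and 2.69% and 3.36% of non-targeting guides. The rule chose the gene on these contrasts, so nothing is read from that difference. With overlapping guides counted once, as 5 target windows with a kept guide, the medians were -0.72, -3.11 and -5.20 (an alternative chosen after seeing the data).

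**Figure D1:**
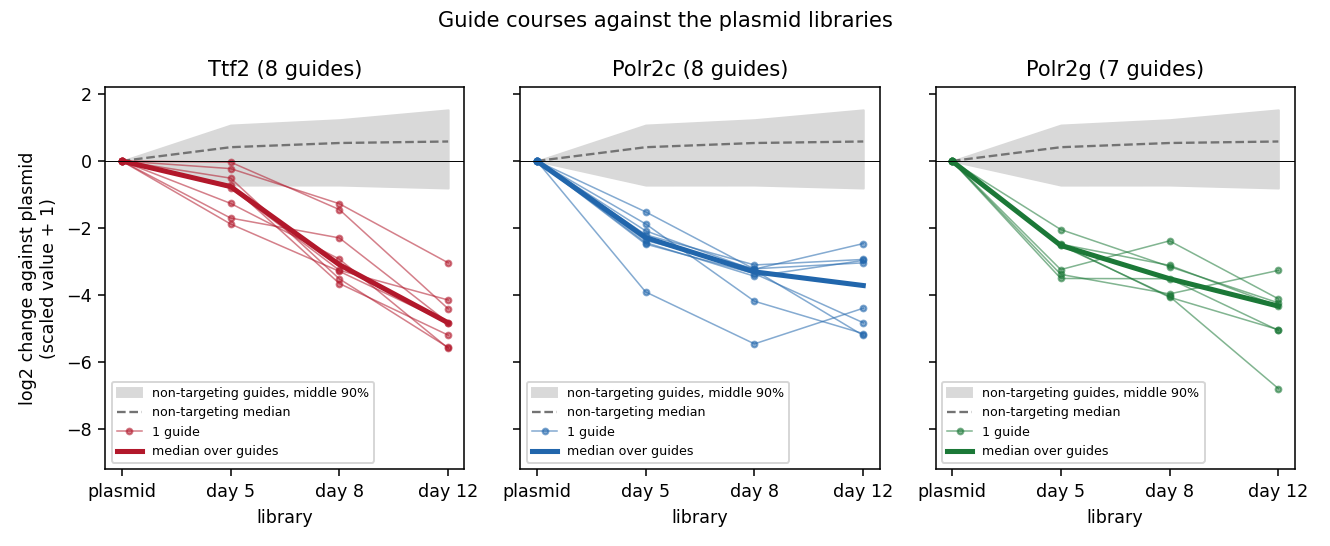
Log2 change of each kept guide against the plasmid libraries (y axis) over the plasmid, day 5, day 8 and day 12 libraries (x axis) for Ttf2, Polr2c and Polr2g; thin lines are guides, thick lines medians, the dashed line the median of non-targeting guides and the grey band their middle 90%. The 8 Ttf2 guides lie between -1.88 and -0.03 at day 5 and between -5.59 and -3.04 at day 12, while the Polr2g guides are already at or below -2.05 at day 5.

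Against the non-targeting guides, which cut no mouse gene by design, Ttf2 moved from the edge of their range to below all of them. Their median was 0.41, 0.54 and 0.58 at the 3 days, which put Ttf2 at -1.17, -3.63 and -5.41 relative to it. The median of all genes was 0.01 at each day, so it too lay below the non-targeting median. At day 5, 5 of 8 Ttf2 guides lay under the lowest 5% of the 893 non-targeting guides (below -0.72), and 44 non-targeting guides lay at or below the Ttf2 median. At day 8, 6 of 8 lay below the lowest non-targeting guide, which stood at -1.96. At day 12 all 8 did, with the highest Ttf2 guide at -3.04 and the lowest non-targeting guide at -2.67.

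Base composition and the plasmid pool were measured beside this course. The kept Ttf2 guides had 45 to 65% GC with a median of 52.5%, against 55% over all kept guides to genes. Those of Polr2c had 35 to 60% with a median of 47.5%, and those of Polr2g 40 to 50% with a median of 45%. Non-targeting guides of 45, 50, 55, 60 and 65% GC had medians of 0.21, 0.53, 0.61, 0.64 and 0.70 at day 12. These classes, which cover all kept Ttf2 guides, were all above 0, while the 11 non-targeting guides of 35% GC had a median of -0.82. At day 5 the classes of 35, 40, 45, 50, 55, 60 and 65% GC had medians of -0.62, -0.19, 0.12, 0.33, 0.43, 0.43 and 0.55. The part of GC content in the day 5 difference between Ttf2 and the 2 reference genes was not tested. Between the 2 plasmid libraries, a measure the choice of the gene did not use, Ttf2 had a median log2 difference of -0.13 (library 2 over library 1, SD 0.30, 3 of 8 guides above 0). The middle 90% of genes lay between -0.21 and 0.19. Ttf2 guides were somewhat scarce in the pool, with a median scaled level of 39.5 CPM against 51.1 CPM over guides to genes, which put the gene at place 141 from the lowest of 1682.

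Polr2c and Polr2g were far lower than Ttf2 at day 5. The 8 kept Polr2c guides had 1800 and 641 plasmid reads and 110, 42 and 42 reads at days 5, 8 and 12, and the 7 kept Polr2g guides had 1535 and 538 plasmid reads and 66, 38 and 10 reads. At day 5 that left 20.8% for Polr2c (17.1 to 25.2%) and 14.7% for Polr2g (11.3 to 18.8%), both intervals entirely below the 49.7 to 64.0% of Ttf2. In log2 medians Polr2c stood at -2.29 (SD 0.70) and Polr2g at -2.52 (SD 0.56), so Ttf2 was 1.52 and 1.76 log2 units higher. All 8 Ttf2 guides lay above every Polr2g guide, and 6 of 8 lay above every Polr2c guide, with guides of a shared window counted singly. Both genes were named as references for an early loss and Ttf2 for a late one. The gap at day 5 therefore follows from the choice and nothing is read from it.

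By day 8 the guides of the 3 genes overlapped. Ttf2 was 0.21 log2 units above Polr2c (-3.31) and 0.42 above Polr2g (-3.51), less than the SD over guides of each gene. In summed reads 7.89% was left of Polr2c (5.67 to 10.7%) and 8.40% of Polr2g (5.93 to 11.6%), both ending below the lower bound of Ttf2, 11.7%. Summed over guides Ttf2 was thus still the more abundant by counting error alone, against Polr2g only narrowly. Of its 74 reads, guides 14106 and 14107 had 18 and 16, with 40.4% and 38.4% left. Its other kept guides had 5.18 to 16.4% left, so the summed difference leans on these 2 guides. The medians were not apart.

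At day 12 Ttf2 was below Polr2c in summed reads, and its order with Polr2g was not settled. Polr2c had 9.00% left (6.47 to 12.2%), above the interval of Ttf2. Polr2g had 2.52% left (1.21 to 4.65%), and its interval overlapped that of Ttf2 (0.952 to 3.96%). The Ttf2 median lay 1.11 log2 units below Polr2c (-3.72, SD 1.13) and 0.50 below Polr2g (-4.33, SD 1.11), neither more than the SD over guides of that gene. With a pseudocount of 5 the difference from Polr2c was -0.011 and that from Polr2g 0.17. The lowest single guide value among the 3 genes was that of Polr2g guide 09895, at -6.79. It had 0 reads at day 12, so the value is its lowest possible one, set by its plasmid abundance. Of the 8 Ttf2 guides, 1 lay above every Polr2g guide.

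**Figure D2:**
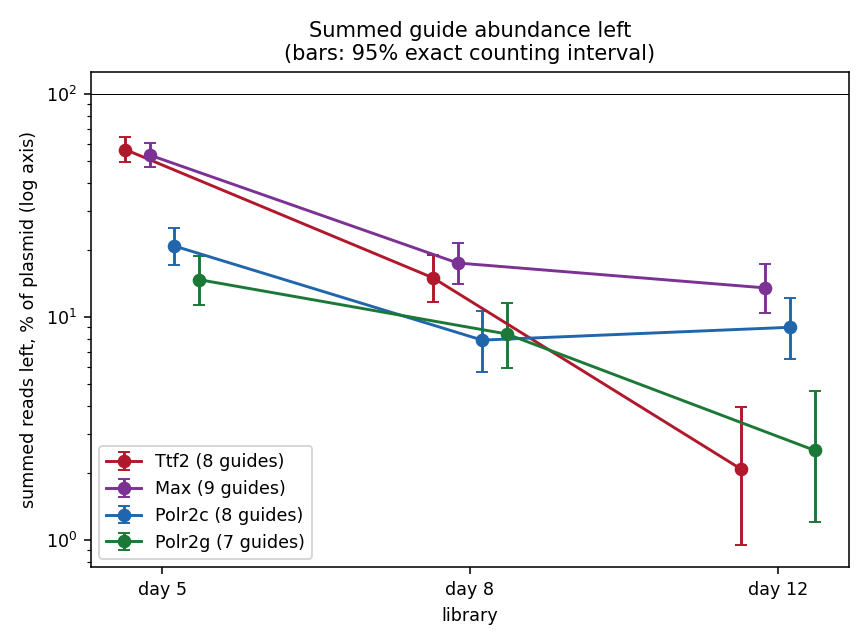
Summed reads of the kept guides left at days 5, 8 and 12 (x axis, points offset sideways) as percent of their plasmid abundance (y axis, log scale) for Ttf2, Max, Polr2c and Polr2g; bars are 95% exact counting intervals. Ttf2 goes from 56.5% to 2.08%, crossing Polr2c between days 8 and 12, and its interval overlaps that of Polr2g at day 12.

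The intervals between time points can be read without the plasmid libraries as the reference. From day 5 to day 8, 26.6% of the summed Ttf2 abundance was left (20.3 to 34.4%), and from day 8 to day 12, 13.9% (6.11 to 27.8%). Per day this was a log2 change of -0.64 (-0.77 to -0.51) and then -0.71 (-1.01 to -0.46), intervals that overlap, so no slowing was detectable. Polr2g changed by -0.27 per day (-0.48 to -0.07) and then -0.43 (-0.73 to -0.18). Polr2c changed by -0.47 per day (-0.65 to -0.29) and then by 0.05 (-0.12 to 0.21), an interval that includes 0. In the first of these intervals the rate of Ttf2 overlapped that of Polr2c within counting error and was lower than that of Polr2g. In the last it was lower than that of Polr2c and overlapped that of Polr2g.

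Guide by guide, all 8 Ttf2 guides were lower at day 8 than at day 5 and lower again at day 12. Several of these single drops rest on few reads. Guides 14105 and 14108 went from 2 to 0 reads between days 8 and 12, and guide 14101 from 3 to 1. Guide 14104 went from 8 to 5 reads between days 5 and 8. For each of these drops the exact intervals of the 2 days overlap. They also overlap for guides 14106 and 14108 from day 5 to day 8. From day 8 to day 12 they are apart only for guides 14102 and 14107. The median log2 change was -1.54 from day 5 to day 8 (SD 0.89) and -1.90 from day 8 to day 12 (SD 0.69). In the first of these intervals 7 of 8 guides were at or below -1, against 6.37% of guides to genes and 0.336% of non-targeting guides, and in the second 7 of 8, against 5.36% and 0.56%. The exceptions were guide 14104 from day 5 to day 8 (-0.59) and guide 14101 from day 8 to day 12 (-0.89). From day 5 to day 12 the guides lay between -5.05 and -2.81 with a median of -3.83 (SD 0.84), and all 8 were at or below -1, against 12% of guides to genes and 0.896% of non-targeting guides. The gene was chosen for its late loss, so nothing is read from these differences either.

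Among the 1682 gene medians, ordered from the lowest, Ttf2 stood at place 162 at day 5, between Taf6 (-0.77) and Taf12 (-0.76), which code for parts of the initiation factor TFIID. At day 8 it was at place 12, between Cnot2 (-3.13) and Ehmt1 (-3.09), and at day 12 at place 1, followed by Polr2g. Its neighbours at days 5 and 8 differed from it by far less than the SD over its guides, and Polr2g at day 12 by 0.50, also less. It was also the lowest from day 8 to day 12, followed by Kat7 (-1.36), and from day 5 to day 12, followed by Max (-2.95). At day 12, 15.8% of genes had a median at or below -1, and 110 genes were at or below -2. Over those 110 genes the day 5 change was a median of 50.6% of the day 12 change, and for Ttf2 15.8%, with 58.2% for Polr2g and 61.5% for Polr2c. Among these 110, the 2 genes with a smaller share, named after their values were seen, were Klf2 (KLF2 in the library, 14.2%) and Nr0b1 (NR0B1, 15.5%). Both are regulators of naive pluripotency, with day 12 medians of -2.09 each. Genes short of -2 got no share, so this count depends on that mark. Nelfb (-0.28 at day 5, -1.96 at day 12) and Ankrd49 (-0.29 and -1.88), also named after their values were seen, had small day 5 changes too.

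The place at day 12 is limited by depth. With no reads at all a guide still gets a finite value, set by its plasmid abundance and the 1 added to it, and the median of these lowest values was -5.34 for the Ttf2 guides. The Ttf2 median lay 0.51 above it, Polr2g 1.45 above its own limit and Polr2c 1.94. The Ttf2 median itself fell between guides 14104 (-4.82) and 14108 (-4.83). Both had 0 reads at day 12 and stood at their own lowest values, so their plasmid abundance set the median. With 0-read guides set to 3 reads the Ttf2 median was -3.62 and at place 3, with a pseudocount of 5 it was -2.87 and at place 6, and with at least 100 plasmid reads, which left 2 guides, it was -5.93 and at place 3 of 1582 genes. From day 8 to day 12 it was at place 2 with 0-read guides at 3 reads (-1.32). From day 5 to day 12 Ttf2 was the lowest gene in these 3 alternatives as well.

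The genes whose median course over days 5, 8 and 12 was closest to Ttf2, by Euclidean distance over those 3 values, were Max, Srsf1, Gtf2e2, Cnot2, Hnrnpk and Ehmt1. All of these courses share the plasmid libraries as their reference. Max, the obligate partner of MYC proteins, was nearest at a distance of 0.79, with medians of -0.72, -2.99 and -4.04. It had 290 reads at day 5, close to the 276 of Ttf2, but 96 at day 8 and 65 at day 12, so that 13.5% was left (10.4 to 17.3%), above the interval of Ttf2. Its 9 guides were also more spread at day 12, from -6.40 to -0.59 (SD 2.18), and 7 of them were at or below -1. Srsf1, a splicing factor gene, followed at 0.94 with medians of -1.33, -3.05 and -4.08. Gtf2e2, which codes for a subunit of the initiation factor TFIIE, was at 1.39, Cnot2 of the CCR4-NOT deadenylase at 1.41, Hnrnpk, an RNA-binding protein gene, at 1.42 and the histone methyltransferase gene Ehmt1 at 1.43. Their day 12 medians lay between -4.08 and -3.48, all above that of Ttf2.

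**Figure D3:**
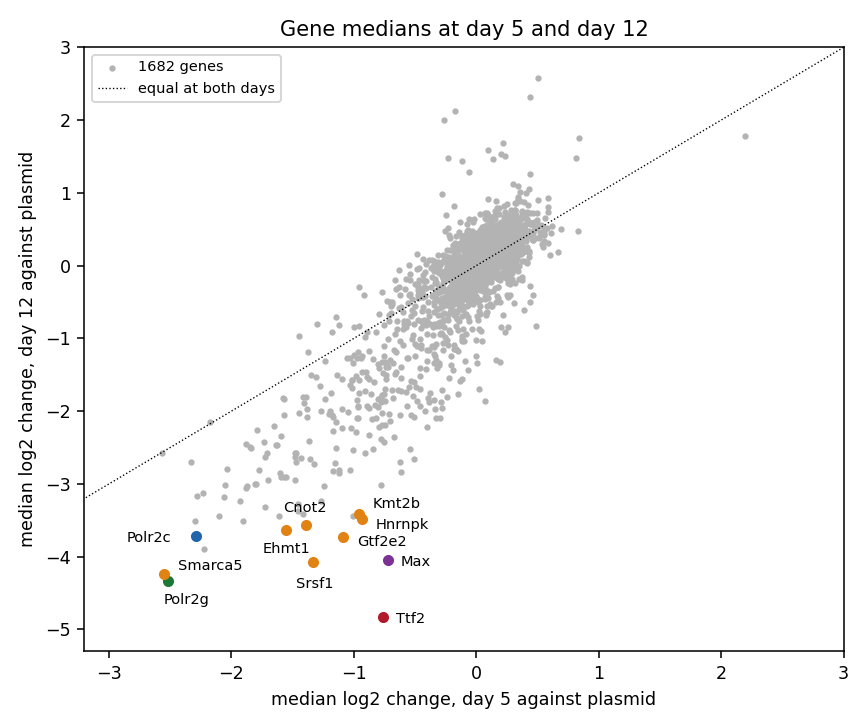
Median log2 change against the plasmid libraries at day 5 (x axis) and day 12 (y axis) for 1682 genes, each point a gene; coloured points are Ttf2, Polr2c, Polr2g, Max and other named genes, and the dotted line marks equal values. Ttf2 lies at -0.76 and -4.83, to the right of Polr2c (-2.29 and -3.72) and Polr2g (-2.52 and -4.33), with Max nearest.

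Other genes also had low values in the later intervals. From day 5 to day 8 the 5 lowest medians were Max (-1.87), Hnrnpk (-1.77), Srsf1 (-1.67), Kmt2b (-1.58), a histone methyltransferase gene, and Ttf2 (-1.54), and 2.62% of genes were at or below -1. From day 5 to day 12 they were Ttf2 (-3.83), Max (-2.95), the histone acetyltransferase gene Kat7 (-2.61), Hnrnpk (-2.44) and Kmt2b (-2.42), and 7.02% of genes were at or below -1. All 8 Kat7 guides were at or below -1 from day 5 to day 12, the highest at -1.78, and their summed reads were 201, 94 and 25 at the 3 days. In the last interval, from day 8 to day 12, 0.654% of genes were at or below -1, or 11 genes, Ttf2 among them. Kat7 (-1.36), Polr2g (-1.22), Gtf2e2 (-1.16) and Eaf1 (-1.02) were also among them. Of the 6 nearest courses Gtf2e2 alone was past the mark. Max (-0.44), Srsf1 (-0.15), Hnrnpk (-0.63), Cnot2 (-0.14) and Ehmt1 (0) were not.

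The other genes around transcription were read from 4 lists, which were put together with the course of Ttf2 known. RNA polymerase II itself is built of subunits, and 11 subunit genes were in the library. At day 5, 9 of 11 had a median at or below -1, against 6.3% of all genes, and 10 of 11 were lower than Ttf2. The exception was Polr2k (-0.38), which ended at -0.80. At day 8, 10 of 11 were past -1, against 12.1% of genes, and 2 of 11 were lower than Ttf2, Polr2c and Polr2g. At day 12, 10 of 11 were past -1, against 15.8%, and 0 of 11 were lower than Ttf2. The list median was -1.62, -2.19 and -2.47 at the 3 days, where the median of all genes was 0.01 each time. The largest subunit gene, Polr2a, which carries the catalytic site, stood at -1.03 and -1.27 at days 5 and 12, and Polr2j at -1.61 and -3.43. From day 5 to day 12, 2 of the 11 were at or below -1, Polr2g (-1.85) and Polr2j (-1.26), against 7.02% of genes.

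The pausing and elongation factors, which hold the polymerase near the start of a gene or help it move on, were past the mark in few cases at day 5 and in more at day 12. Of 23 such genes 2 were at or below -1 at day 5, 6 at day 8 and 12 at day 12, against 6.3%, 12.1% and 15.8% of all genes, with list medians of -0.22, -0.70 and -1.14. At day 5 the list's share of 8.70% was near that of all genes. The lowest was Eaf1 (-1.45, -2.88 and -3.37 at the 3 days), a partner of the elongation factor ELL, whose gene Ell stood at -0.87, -2.24 and -2.33. The pausing factor gene Nelfb stood at -0.28, -0.74 and -1.96. The highest was Tcea3 (0.81 at day 12), of the TFIIS family, and 5 of 23 were at or below -1 from day 5 to day 12, against 7.02% of all genes.

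Of 17 other SNF2-family ATPases, the enzyme family of Ttf2, 2 were at or below -1 at days 5 and 8 and 4 at day 12, against 6.3%, 12.1% and 15.8% of all genes. The list's share at day 8, 11.8%, was near that of all genes, and its medians were -0.23, -0.40 and -0.19 against 0.01. Smarca5, an ISWI remodeller gene, was the lowest (-2.55, -3.65 and -4.23), with 60.2% of its day 12 change present at day 5. The other 3 at day 12 were Chd4 (-1.55), Smarca4 (-1.34) and Smarcad1 (-1.10), and Ep400 was the highest (0.45). From the list of termination and RNA release factors, 1 gene besides Ttf2 was in the library, the splicing factor gene Cdc5l, at -1.02, -1.20 and -1.58. Its 5 guides lay between -2.96 and 0.69 at day 12. No member of the 4 lists had a median at or above 1, where 0.0595%, 0.178% and 1.19% of genes did at days 5, 8 and 12 and 0.832% did from day 5 to day 12.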

How the data were processed

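The deposited values are raw counts of reads per guide, per the file headers. Per the submitters' processing notes, cutadapt, Bowtie and featureCounts were used with the build mm10; the guide reference is not given in the sources used here. Guides with at least 30 reads in both plasmid libraries were kept, 4 to 10 per gene. Counts were scaled to CPM with TMM factors (edgeR 4.0.16, R 4.3.3) and compared as log2 with a pseudocount of 1, against the mean of both plasmid libraries, which differed beyond sampling noise (chi-square 2.21 per degree of freedom) and count as 2. Percentages left use pooled plasmid reads, with exact 95% Clopper-Pearson intervals (scipy 1.17.1). With 1 library per day nothing was tested; a log2 size of 1 marked guides and genes for counting. Named were Ttf2, Polr2c and Polr2g, the 6 nearest courses, the 5 lowest genes of 2 intervals and the lowest and highest of each of 4 lists, among genes with at least 4 kept guides; all others were named after their values were seen. The gene and the lists were chosen with earlier results of these data known. The functions were tested on simulated data. Alternatives (pseudocount, read minimum, library totals, DESeq2 1.42.0 size factors, non-targeting centring, plasmid reference, guide summary, each guide left out) are in the closing section.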

Additional observations from a re-analysis of the deposited data

How the results depend on the processing

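No paired analysis was possible because each day has 1 library. The Ttf2 medians were below 0 in all comparisons and all 20 alternatives, each against the plasmid libraries or an earlier day. With a pseudocount of 5 the Ttf2 medians were -2.31 at day 8, -2.87 at day 12 and -2.27 from day 5 to day 12; Ttf2 minus Polr2c at day 12 was -0.011, Ttf2 minus Polr2g turned to 0.17, and Ttf2 minus non-targeting was -2.82 at day 8 and -3.42 at day 12. Genes at or below -1 then numbered 11 from day 5 to day 8, 2 from day 8 to day 12 and 58 from day 5 to day 12. With at least 100 plasmid reads, which left 2 Ttf2 guides, the medians were -2.37 from day 5 to day 8 and -4.998 from day 5 to day 12. Ttf2 minus Polr2c was then 1.07 at day 5, -0.0020 at day 8 (turned) and -3.09 at day 12, Ttf2 minus Polr2g turned to 0.22 at day 12, and Ttf2 minus non-targeting was -6.56 at day 12. Genes at or above 1 numbered 3, 10 and 40 at days 5, 8 and 12 and 1 from day 5 to day 8, and genes at or below -1 numbered 28 from day 8 to day 12. Centred on the non-targeting median, Ttf2 stood at -1.17 at day 5 and -3.63 at day 8. Genes at or below -1 then numbered 221, 364 and 450 at days 5, 8 and 12, and genes at or above 1 numbered 1 and 8 at days 8 and 12, against 106, 204 and 265 lower and 3 and 20 higher before. As a ratio of summed reads, day 8 gave -2.69 for Ttf2, 0.91 against Polr2c and -3.26 against non-targeting guides. With 0-read guides at 3 reads, day 12 gave -3.62 for Ttf2, 0.49 against Polr2g (turned) and -4.21 against non-targeting guides. Without either plasmid library 4 to 5 genes were at or above 1 at day 8, against 3. Leaving out each guide in turn moved the Ttf2 median at day 12 between -4.83 and -4.82. That median was always guide 14104 or 14108, both with 0 reads at day 12. The narrow range therefore follows from their similar lowest values and is no measure of stability. Beyond the construction of each alternative, the cause was not tested. The 9 reads left at day 12 limit how far the lowest genes can be ordered.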
